A study of Prunus avium with 6 samples.

Results

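The 72 genes described here had high read numbers in the ripe fruits of 3 sweet cherry cultivars and low read shares in their leaves. They were chosen by their measured values, out of 43673 predicted genes, of which 16519 had at least 1 read. A member had at least 30 unique reads in each of the 3 fruit libraries, at least 1 unique read over the 3 leaf libraries, and a share of pooled fruit reads at least 4 times its share of pooled leaf reads. Of the 246 genes with at least 30 reads in each fruit, 163 stayed under that ratio, 5 had no leaf read, 6 were left out by the start of their identifier, and the 72 members made up 29.3%. The 174 genes that were not members are the closest set to compare them with, since they passed the same minimum in fruit. Fruit and leaf values are therefore a description of what was selected on, and no test was made of them.

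RNA was measured in 6 libraries of Prunus avium from the 2012 season, 1 for each cultivar and tissue, by pyrosequencing. The fruits and leaves of ‘Rainier’ came from San Francisco de Mostazal, those of ‘Lapins’ from Los Andes and those of ‘Bing’ from Quillota, all in Chile. No treatment is named, all samples carry the same age label of 1 without a unit, and the fruits were picked at commercial maturity. Since each cultivar came from its own site, cultivar and site cannot be told apart, and the sources used here do not say whether several trees were pooled.

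Sweet cherry is a fleshy stone fruit that ripens without a burst of ethylene. While it ripens it softens, takes up sugars and builds up pigments and defence proteins, and a small number of transcripts can take a large part of its messenger RNA. Leaves spend much of theirs on photosynthesis. In whole tissues, fewer cells of a type and less RNA per cell cannot be told apart. The study annotated its predicted genes, but the part of that annotation used here covers none of the members. They are therefore given by identifier, which holds the scaffold of the genome draft and the gene's number along it, and no role is stated for any of them.

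The libraries held 83953, 74371 and 116264 unique reads in fruits of ‘Rainier’, ‘Lapins’ and ‘Bing’ and 70196, 70058 and 89009 in their leaves. A count of 0 leaves room for up to 3 reads, which is 0.258 to 0.428 per 10000 unique reads depending on the library. Levels are given as reads, or as reads per 10000 unique reads of the library where libraries are compared, and 95% intervals are exact (Clopper-Pearson) and cover counting error only. The labelled tissues were checked with 3 genes described as chloroplast proteins, which together had 2, 5 and 5 reads in fruits of ‘Rainier’, ‘Lapins’ and ‘Bing’ and 117, 107 and 91 reads in their leaves. In these fruits 1, 2 and 2 of the 3 genes were at 0, and in the leaves none was. No fruit markers were set.

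The 72 members took 22.8%, 17.6% and 14.1% of all unique reads in fruits of ‘Rainier’, ‘Lapins’ and ‘Bing’, a mean of 18.2% ± 4.35 (SD, n = 3 cultivars). In leaves they took 1.08%, 1.13% and 1.01%, a mean of 1.07% ± 0.0623. The 174 other genes with at least 30 reads in each fruit took 14.5% ± 2.17 in fruits and 10.2% ± 0.306 in leaves. For each of the 72 members the lowest of the 3 fruit shares lay above the highest of the 3 leaf shares. Among all 4385 genes with at least 10 reads in a library this held for 24.6%, and since the members were selected on this contrast nothing is read from their count.

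The 6 members with the most fruit reads held 14.4%, 9.60% and 6.42% of reads in fruits of ‘Rainier’, ‘Lapins’ and ‘Bing’, and the first 3 of them alone held 10.3%, 6.97% and 4.07%. The other 66 members together held 8.43%, 8.02% and 7.73%, a mean of 8.06% ± 0.354 (SD, n = 3 cultivars). Counted from the most read member in each library, 4 members in ‘Rainier’, 5 in ‘Lapins’ and 7 in ‘Bing’ made up more than 50% of all member reads of the fruit. The spread between the fruits in the share of the whole group thus lay mostly in its first members.

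**Figure D1:**
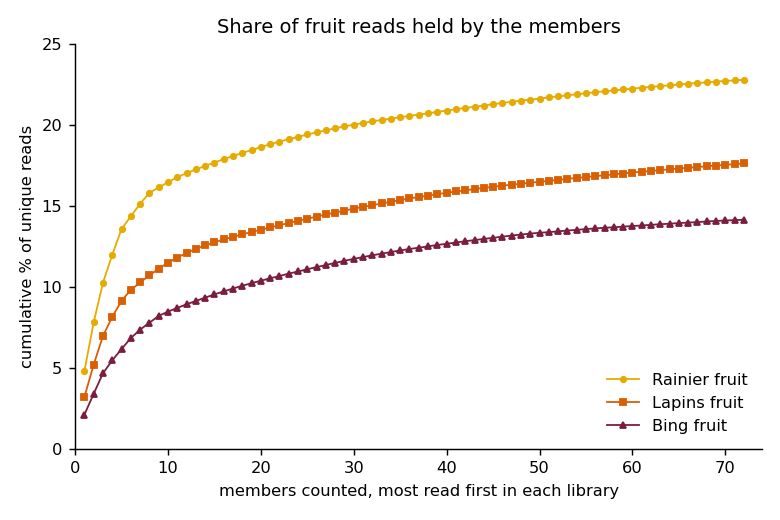
Cumulative share of unique reads (in %, vertical axis) held by the 72 members, counted from the most read one in each library (horizontal axis), for fruits of ‘Rainier’, ‘Lapins’ and ‘Bing’. Each point is 1 member added, and the curves part over the first members and end at 22.8%, 17.6% and 14.1%.

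The most read member, Pav_sc0000058.1_g360.1.br, had 4027, 2375 and 2448 reads in fruits of ‘Rainier’, ‘Lapins’ and ‘Bing’ and 7, 13 and 4 reads in their leaves. It was the first gene of the group in each fruit and alone took 4.80%, 3.19% and 2.11% of their reads. Its pooled fruit share was 308 times its leaf share, with an interval of 207 to 481. Pav_sc0000058.1_g230.1.mk lies on the same scaffold, where it is the 14th of the genes in order and Pav_sc0000058.1_g360.1.br the 25th, and both have a coding length of 738 bases. It had 2524, 1312 and 1474 reads in fruits of ‘Rainier’, ‘Lapins’ and ‘Bing’ and 5, 11 and 4 reads in their leaves, at a ratio of 222 (143 to 363). In both genes the fruit of ‘Rainier’ was the highest, and the leaf of ‘Lapins’ had the most reads of the leaves.

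Reads that matched these 2 genes and another gene equally well were few, 7 for Pav_sc0000058.1_g360.1.br and 18 for Pav_sc0000058.1_g230.1.mk over the 6 libraries, and are not in the unique reads. The gene that follows Pav_sc0000058.1_g360.1.br, Pav_sc0000058.1_g370.1.br, is no member because it had no leaf read. It had 297, 228 and 79 reads in fruits of ‘Rainier’, ‘Lapins’ and ‘Bing’. Both genes next to Pav_sc0000058.1_g230.1.mk had no read in any library.

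Pav_sc0001900.1_g030.1.mk had 2062, 1494 and 812 reads in fruits of ‘Rainier’, ‘Lapins’ and ‘Bing’ and 12, 6 and 8 reads in their leaves. Its ratio of fruit to leaf was 140 (95.6 to 215). The fruit of ‘Bing’ stood below the other two, at 69.8 reads per 10000 against 246 in ‘Rainier’ and 201 in ‘Lapins’.

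Leaf reads were not low in number for all members. Pav_sc0000863.1_g110.1.mk had 1445, 732 and 1504 reads in fruits of ‘Rainier’, ‘Lapins’ and ‘Bing’, and with 141, 165 and 113 reads it was the most read member of each leaf. Its ratio was 7.34 (6.63 to 8.13), somewhat below the group median of 8.52. Pav_sc0000367.1_g040.1.mk was the second such gene, with 664, 884 and 923 reads in the fruits and 92, 70 and 58 reads in the leaves, at a ratio of 9.38 (8.17 to 10.8). These 2 members held 419 and 220 of the leaf reads of the group, against a median of 20 leaf reads per member.

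Pav_sc0005810.1_g020.1.mk stood at the other end, with 1331, 340 and 305 reads in fruits of ‘Rainier’, ‘Lapins’ and ‘Bing’ and 1, 0 and 0 reads in their leaves. Its ratio of 1650 was the largest of the group, but it rests on 1 leaf read and its interval runs from 296 to 65197. Per coding length its place was lower. With 3588 bases of coding sequence it had 21.4 reads per 10000 unique reads and kilobase as a mean over the fruits, whereas Pav_sc0000058.1_g360.1.br had 456, Pav_sc0000863.1_g110.1.mk 289 (462 bases) and Pav_sc0000058.1_g230.1.mk 273. On this scale per length Pav_sc0000863.1_g110.1.mk took the second place and Pav_sc0005810.1_g020.1.mk the 12th.

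**Figure D2:**
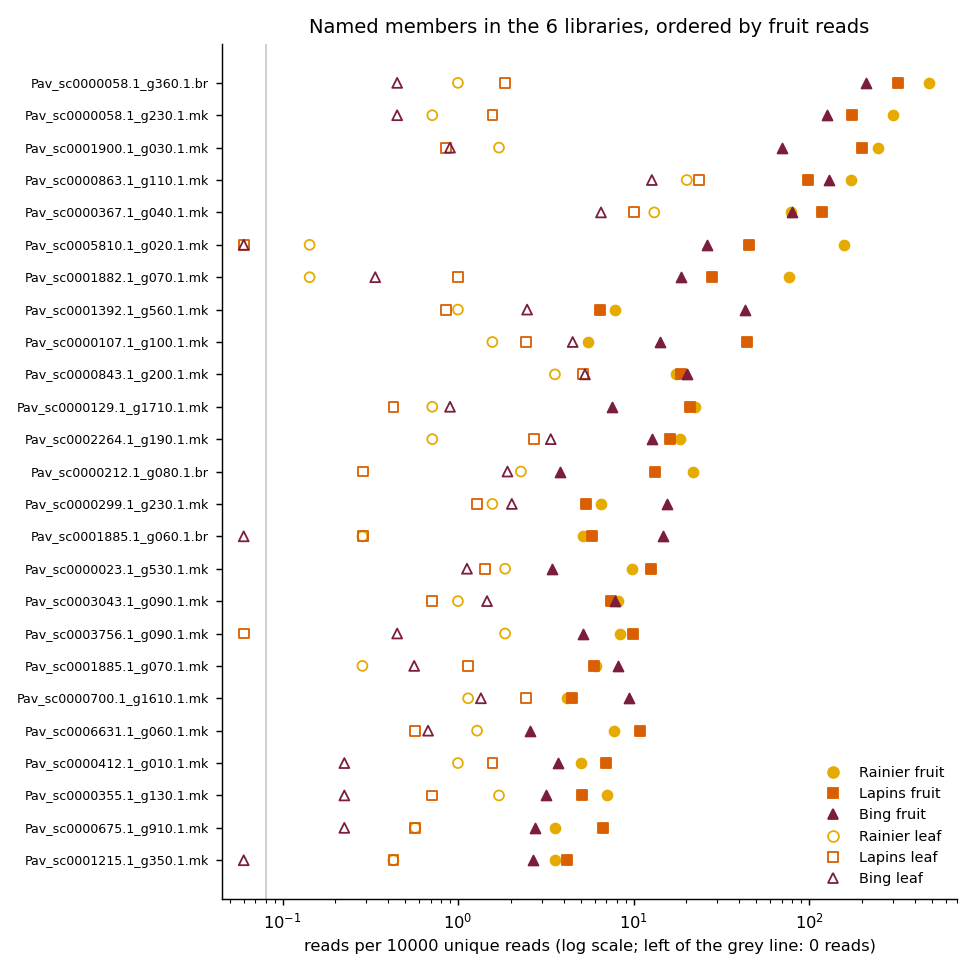
Reads per 10000 unique reads (horizontal axis, log scale) of members named in the text, 1 line per gene ordered by fruit reads, in the 3 fruit libraries (filled) and the 3 leaf libraries (open), with points left of the grey line standing for 0 reads. In each line all filled points lie right of all open ones, which the choice of members favoured.

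The members differed widely in how far fruit stood above leaf. The ratio of pooled shares had a median of 8.52 and ran from 4.01 to 1650, with 10 members between 4 and 5, 30 between 5 and 10, 14 between 10 and 20, 13 between 20 and 100 and 5 at 100 or more. For 17 members the lower end of the interval lay under 4. Reads in the leaf were few, and 62 members had at least 1 read in all 3 leaves, 8 had 0 in 1 leaf and 2 had 0 in 2 leaves. Only 19, 20 and 29 members reached 10 reads in the leaf of ‘Rainier’, ‘Lapins’ and ‘Bing’.

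Taken within each cultivar, the median ratio over the members with a leaf read was 10.05 in ‘Rainier’ (70 members), 10.2 in ‘Lapins’ (68) and 10.1 in ‘Bing’ (66). The ratio lay under 4 for 5, 5 and 17 members in ‘Rainier’, ‘Lapins’ and ‘Bing’, in all for 23 members in at least 1 cultivar, and under 1 for none. It lay under 2 in 1 cultivar for 5 members. Pav_sc0007796.1_g050.1.mk, the lowest in ‘Bing’, had ratios of 10.2, 3.62 and 1.68 in ‘Rainier’, ‘Lapins’ and ‘Bing’. Pav_sc0000700.1_g1610.1.mk, the lowest in ‘Lapins’, had 3.66, 1.83 and 7.02.

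**Figure D3:**
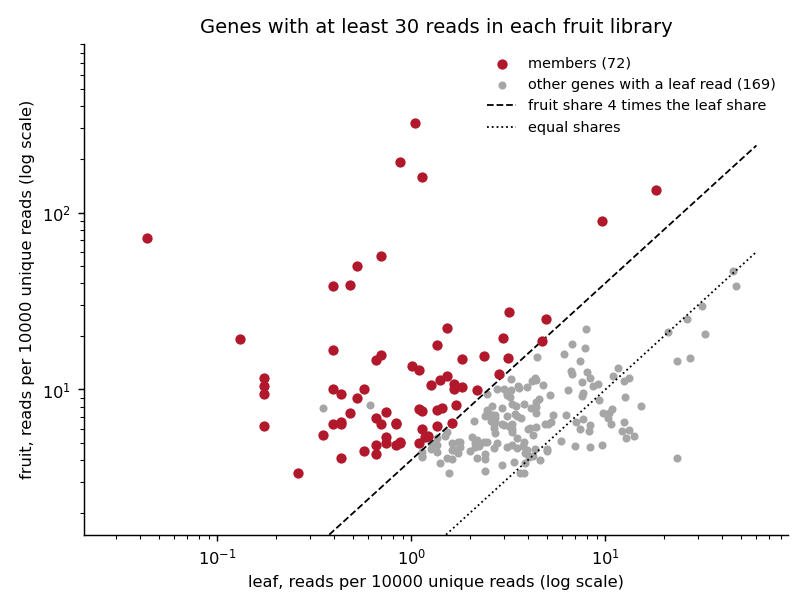
Pooled fruit level against pooled leaf level, both in reads per 10000 unique reads on log scales, for the 72 members (red) and the 169 other genes with at least 30 reads in each fruit and a leaf read (grey). The dashed line marks a fruit share 4 times the leaf share, which the rule used, the dotted line marks equal shares, and the 2 grey points above the dashed line are genes left out by identifier.

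Near the limits of the rule, members and other genes had much the same values. Just inside the ratio, Pav_sc0000843.1_g200.1.mk stood at 4.01 with 147, 138 and 234 reads in fruits of ‘Rainier’, ‘Lapins’ and ‘Bing’ and 25, 36 and 47 in their leaves, and Pav_sc0000700.1_g1610.1.mk at 4.02. Just outside were Pav_sc0000557.1_g180.1.mk at 3.93, with 57, 48 and 69 fruit reads and 16, 13 and 8 leaf reads, and Pav_sc0001524.1_g020.1.mk at 3.92. Just inside the read minimum, Pav_sc0001215.1_g350.1.mk had 30, 31 and 31 reads in the fruits, and Pav_sc0000675.1_g910.1.mk had 30, 50 and 32. Just outside it, Pav_sc0001925.1_g240.1.mk had 40, 29 and 41, and Pav_sc0004354.1_g060.1.mk had 53, 30 and 29.

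The rule did not compare the cultivars, but its limits bear on the question of how members differ between them. Its minimum of 30 reads in every fruit limits how low a member can be in any of them. The libraries differ in depth, so 30 reads are 3.57, 4.03 and 2.58 per 10000 in fruits of ‘Rainier’, ‘Lapins’ and ‘Bing’. Genes with a low share in ‘Bing’ were thus kept more readily, among the members and the 174 other genes. How far this moved the calls and medians below was not tested. The pooled ratio of the rule can be passed through 1 high fruit. The calls below are therefore not fully apart from the choice of members. Of the 72 members, 67, 71 and 67 still met the rule without the fruit of ‘Bing’, ‘Lapins’ and ‘Rainier’ in turn. With 1 library per arm, each comparison of cultivars is one of 2 libraries and has no replicate check. A gene was called where the test of 2 proportions used in the study gave a p of at most 0.05, the ratio of shares was at least 2 and at least 1 of the 2 libraries had 10 reads. All 72 members could be compared in the fruits, and 39 of them were called in no pair. Of the 33 called in at least 1 pair (45.8%), 7 were lower in ‘Bing’ than in both other fruits, 5 were higher in ‘Bing’ than in both, 3 were higher in ‘Rainier’ than in both, and 18 had other patterns. Of the 3398 genes with at least 10 reads in a fruit, 49.1% were called in at least 1 pair, 6.39% were lower and 11.4% higher in ‘Bing’ than in both, and 1.47% were higher in ‘Rainier’ than in both. Of the 174 other genes these shares were 34.5%, 9.77%, 1.72% and 0%. The members' shares for the patterns were 9.72% lower and 6.94% higher in ‘Bing’, and 4.17% higher in ‘Rainier’, and the difference from either set was not tested.

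Between the fruits of ‘Rainier’ and ‘Bing’, 16 members were called higher in ‘Rainier’ (22.2% of the 72), where 12.4% of the 3259 genes compared were, and 8 were called lower (11.1%), where 20.6% of genes were. Between ‘Lapins’ and ‘Bing’, 13 members were higher in ‘Lapins’ (18.1%), beside 14.2% of 3220 genes, and 9 were lower (12.5%), beside 21.4%. Between ‘Rainier’ and ‘Lapins’, 3 members were higher in ‘Rainier’ (4.17%), beside 7.09% of 2144 genes, and 1 was lower (1.39%), beside 8.77%. The same numbers of members were called with p adjusted over the genes with a read in either library, 24, 22 and 4 in these pairs, beside 13.5%, 16.1% and 2.05% of the genes compared. These backgrounds hold genes from 10 reads in 1 library upward, and only the 246 genes with at least 30 reads in each fruit could reach the members' minimum. The 33 members with a range of at least 2-fold between fruits were the 33 called in at least 1 pair. At the members' read numbers the ratio thus decided the calls, and the unchanged counts with adjusted p are no check of them.

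The 174 other genes, which passed the same minimum, gave another picture. Of them 13.2% were called higher and 5.75% lower in ‘Rainier’ than in ‘Bing’, 23.0% higher and 2.30% lower in ‘Lapins’ than in ‘Bing’, and 0% higher and 5.17% lower in ‘Rainier’ than in ‘Lapins’. The median log2 ratio of the members was 0.34 for ‘Rainier’ over ‘Bing’, 0.34 for ‘Lapins’ over ‘Bing’ and 0.06 for ‘Rainier’ over ‘Lapins’. For the 174 other genes it was 0.24, 0.37 and -0.14. The read minimum is a lower share in ‘Bing’ than in the other fruits, which favours genes low in ‘Bing’ in both sets. Scaling by TMM instead of library sums moved all log2 ratios up by 0.17 for ‘Rainier’ over ‘Bing’, 0.13 for ‘Lapins’ over ‘Bing’ and 0.04 for ‘Rainier’ over ‘Lapins’. With it, the members called higher and lower were 21 and 6 in ‘Rainier’ against ‘Bing’, 17 and 4 in ‘Lapins’ against ‘Bing’, and again 3 and 1 in ‘Rainier’ against ‘Lapins’. The shares of genes compared that were then called higher and lower were 15.5% and 16.1%, 16.3% and 17.6%, and 7.88% and 8.26% in these pairs.

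**Figure D4:**
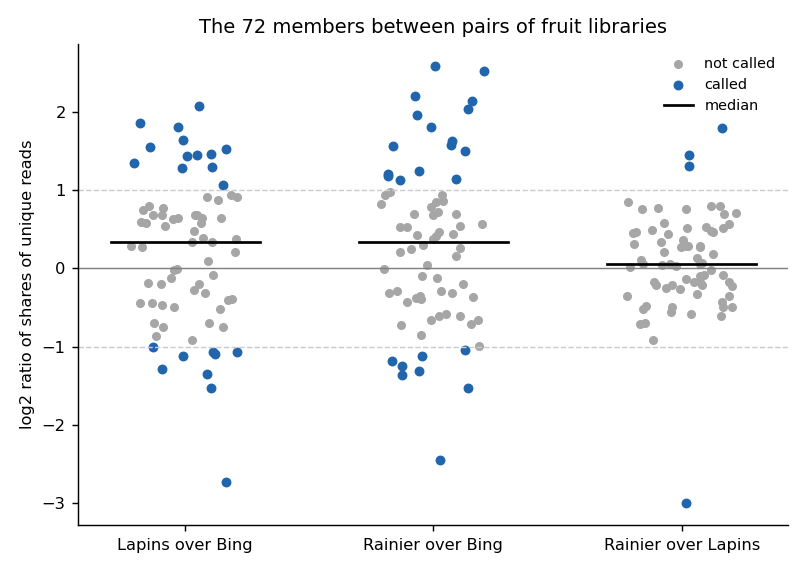
Log2 ratio of the shares of unique reads between pairs of fruit libraries (vertical axis) for each of the 72 members, in columns for ‘Lapins’ over ‘Bing’, ‘Rainier’ over ‘Bing’ and ‘Rainier’ over ‘Lapins’. Blue points were called and grey points were not, the black bars are medians (0.34, 0.34 and 0.06), the dashed lines mark a ratio of 2 in either direction, and sideways position within a column has no meaning.

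The 3 members called higher in ‘Rainier’ than in both other fruits were Pav_sc0005810.1_g020.1.mk, Pav_sc0001882.1_g070.1.mk and Pav_sc0001181.1_g130.1.mk. Pav_sc0005810.1_g020.1.mk had 159, 45.7 and 26.2 reads per 10000 in fruits of ‘Rainier’, ‘Lapins’ and ‘Bing’, so that ‘Rainier’ was 6.04 times ‘Bing’ (5.33 to 6.87) and 3.47 times ‘Lapins’ (3.08 to 3.92). Of its 40 reads that also matched another gene, 33 were in the fruit of ‘Rainier’. Pav_sc0001882.1_g070.1.mk had 76.8, 28.0 and 18.7 reads per 10000 (645, 208 and 217 reads), at 4.12 times ‘Bing’ (3.52 to 4.82) and 2.75 times ‘Lapins’ (2.35 to 3.23). Its count is uncertain, since a further 182 reads, 14.4% of its total, matched more than 1 gene.

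The 7 members called lower in ‘Bing’ than in both included the abundant Pav_sc0001900.1_g030.1.mk, in which ‘Rainier’ was 3.52 times ‘Bing’ (3.24 to 3.82) and ‘Lapins’ 2.88 times (2.64 to 3.14). Pav_sc0000212.1_g080.1.br had 183, 99 and 44 reads in fruits of ‘Rainier’, ‘Lapins’ and ‘Bing’, at 5.76 times ‘Bing’ in ‘Rainier’ (4.13 to 8.20) and 3.52 times in ‘Lapins’ (2.44 to 5.14). Pav_sc0006631.1_g060.1.mk had 65, 81 and 30 reads and the largest ratio of ‘Lapins’ over ‘Bing’, 4.22 (2.75 to 6.65). Pav_sc0000023.1_g530.1.mk followed with 82, 93 and 40 reads and a ratio of 3.63 (2.48 to 5.41). Pav_sc0000129.1_g1710.1.mk, with 188, 155 and 88 unique reads, belongs to the same 7, but 119 further reads of it, 21.0% of its total and the largest such share in the group, matched more than 1 gene. The 2 most read members of the group were called only between ‘Rainier’ and ‘Bing’, at 2.28 (2.17 to 2.40) for Pav_sc0000058.1_g360.1.br and 2.37 (2.22 to 2.53) for Pav_sc0000058.1_g230.1.mk.

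Of the 5 members called higher in ‘Bing’ than in both, Pav_sc0001392.1_g560.1.mk differed most, with 66, 48 and 499 reads in fruits of ‘Rainier’, ‘Lapins’ and ‘Bing’. Its share in ‘Rainier’ was 0.183 times (0.140 to 0.237) and in ‘Lapins’ 0.150 times (0.109 to 0.202) that in ‘Bing’. The leaves had the same order, with 7, 6 and 22 reads in ‘Rainier’, ‘Lapins’ and ‘Bing’. Pav_sc0000299.1_g230.1.mk had 55, 40 and 181 reads in the fruits, at 0.346 times ‘Bing’ in ‘Lapins’ (0.239 to 0.489). Pav_sc0001885.1_g060.1.br had 43, 43 and 172, at 0.346 times ‘Bing’ in ‘Rainier’ (0.242 to 0.486). Neither was called between ‘Rainier’ and ‘Lapins’.

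Pav_sc0000107.1_g100.1.mk was the one member called in all 3 fruit pairs and had the widest range between fruits, 8.02-fold. Its fruit reads were 46, 327 and 164 in ‘Rainier’, ‘Lapins’ and ‘Bing’, or 5.48, 44.0 and 14.1 per 10000. ‘Rainier’ had 0.125 times the share of ‘Lapins’ (0.0895 to 0.170), and ‘Lapins’ 3.12 times that of ‘Bing’ (2.58 to 3.78). Its ratio of fruit to leaf was 3.50, 18.1 and 3.14 in ‘Rainier’, ‘Lapins’ and ‘Bing’, so its place in the group leaned on the fruit of ‘Lapins’. In the leaves the order was another, with 11, 17 and 40 reads in ‘Rainier’, ‘Lapins’ and ‘Bing’, so that the highest fruit and the highest leaf were of different cultivars.

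Over the group, the coefficient of variation of the 3 fruit shares had a median of 31.9% and ran from 4.57% to 108%, and for the 174 other genes the median was 27.6%. The highest fruit was at least 2 times the lowest in 33 members (45.8%), and in 60 of the 174 other genes (34.5%). It was at least 4 times the lowest in 8 members and under 1.5 times in 15, and in 5 and 61 of the 174 other genes. The steadiest member, Pav_sc0003043.1_g090.1.mk, had 8.10, 7.40 and 7.83 reads per 10000 in fruits of ‘Rainier’, ‘Lapins’ and ‘Bing’, and Pav_sc0000843.1_g200.1.mk had 17.5, 18.6 and 20.1. The highest fruit was that of ‘Rainier’ in 28 members, ‘Lapins’ in 18 and ‘Bing’ in 26, and the lowest was that of ‘Bing’ in 37. Among the 174 other genes the highest was ‘Lapins’ in 85 and the lowest ‘Bing’ in 104. The read minimum favoured genes low in ‘Bing’ in both sets, so nothing is read from these counts of highest and lowest fruits. The rank correlation of the members' shares over the 72 genes was 0.83 between fruits of ‘Rainier’ and ‘Lapins’, 0.61 between ‘Lapins’ and ‘Bing’ and 0.57 between ‘Rainier’ and ‘Bing’, where genes are not independent replicates.

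In the leaves the members had few reads, and only 34, 35 and 28 of them had the 10 reads needed in a library of the pair. Between ‘Rainier’ and ‘Bing’, 4 of these 34 members were called higher in ‘Rainier’ and 7 lower, beside 9.98% and 13.4% of all genes compared. Between ‘Lapins’ and ‘Bing’, 6 of the 35 were higher in ‘Lapins’ and 7 lower, beside 10.8% and 12.7%. Between ‘Rainier’ and ‘Lapins’, 4 of the 28 were higher in ‘Rainier’ and 3 lower, beside 9.82% and 11.3%. The genes compared had 10 reads in a library of the pair as well. With adjusted p, 3 of the 34 members were called between ‘Rainier’ and ‘Bing’, 0 of the 35 between ‘Lapins’ and ‘Bing’. Between ‘Rainier’ and ‘Lapins’ it was 1 of the 28. Of all genes compared, 5.26%, 6.15% and 2.59% were called in these pairs. The members called were Pav_sc0000367.1_g040.1.mk, Pav_sc0001461.1_g720.1.mk and Pav_sc0002264.1_g190.1.mk between ‘Rainier’ and ‘Bing’, and Pav_sc0001461.1_g720.1.mk again between ‘Rainier’ and ‘Lapins’.

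Pav_sc0002264.1_g190.1.mk had 5, 19 and 30 reads in leaves of ‘Rainier’, ‘Lapins’ and ‘Bing’, at 0.211 times ‘Bing’ in ‘Rainier’ (0.0640 to 0.550), while its fruits had 154, 120 and 148 reads and were called in no pair. Pav_sc0001461.1_g720.1.mk had 14, 44 and 55 reads in the leaves, at 0.323 times ‘Bing’ in ‘Rainier’ (0.166 to 0.588). Other leaf ratios were wider. Pav_sc0000412.1_g010.1.mk had 7, 11 and 2 leaf reads, at 6.99 times ‘Bing’ in ‘Lapins’ (1.53 to 64.9). Pav_sc0000355.1_g130.1.mk had 12, 5 and 2, at 7.61 times ‘Bing’ in ‘Rainier’ (1.69 to 70.0). Pav_sc0003756.1_g090.1.mk had 13, 0 and 4, so that ‘Rainier’ over ‘Lapins’ has no finite ratio, and its interval starts at 3.04. In 26 of the 72 members the cultivar with the highest fruit share also had the highest leaf share. The median member had only 6, 6 and 7.5 reads in leaves of ‘Rainier’, ‘Lapins’ and ‘Bing’. No such count is given for other genes, so nothing is read from it.

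A second test took the fruit and the leaf of a cultivar as its 2 libraries, with tissue and cultivar in 1 model (edgeR, quasi-likelihood). Differences between cultivars were set against the spread left among libraries. That spread holds any cultivar difference that was not alike in fruit and leaf. A difference in the fruits alone thus counts partly as spread, and a lack of calls here says little about it. All 72 members were among the 1864 genes tested, and 0 were called at an adjusted p under 0.05 in any of the 3 contrasts. The share of all genes called was 0% higher and 0.0536% lower for ‘Rainier’ against ‘Bing’, 0.161% higher and 0.0536% lower for ‘Lapins’ against ‘Bing’, and 0% in both directions for ‘Rainier’ against ‘Lapins’. At an unadjusted p under 0.05 there were 10 members (13.9%) for ‘Rainier’ against ‘Bing’, 7 (9.72%) for ‘Lapins’ against ‘Bing’ and 2 (2.78%) for ‘Rainier’ against ‘Lapins’, beside 7.89%, 7.46% and 1.45% of all genes tested. DESeq2 called 0 members in each contrast as well, with 0, 0 and 0.00605% of all 16519 genes with reads called, and 8, 5 and 2 members at an unadjusted p under 0.05, beside 0.412%, 0.478% and 0.109% of those genes. Many of these genes had too few reads to be in the edgeR test.

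The smallest adjusted p values (edgeR, Benjamini-Hochberg) belonged to members named above. For ‘Rainier’ against ‘Bing’ it was 0.0632 for Pav_sc0005810.1_g020.1.mk, with a log2 fold change of 2.61 (SE 0.64). For ‘Lapins’ against ‘Bing’ it was 0.0923 for Pav_sc0001392.1_g560.1.mk, at -2.35 (SE 0.62), and for ‘Rainier’ against ‘Lapins’ 0.998 for Pav_sc0000107.1_g100.1.mk, at -2.08 (SE 0.63). Leaving out a library changed some of these calls. Without the leaf of ‘Bing’, 4 members were called for ‘Rainier’ against ‘Bing’, 1 for ‘Lapins’ against ‘Bing’ and 1 for ‘Rainier’ against ‘Lapins’ (5.56%, 1.39% and 1.39%), beside 2.34%, 1.42% and 0.138% of the genes tested. Without the leaf of ‘Lapins’ 3, 0 and 1 members were called (4.17%, 0% and 1.39%), beside 0.710%, 0.552% and 0.118% of genes. Without the fruit of ‘Lapins’ 3, 0 and 0 were called, beside 0.526%, 0.121% and 0%, and without any 1 of the other 3 libraries 0. In these fits 1 cultivar had a single library, which was assumed to vary like the others. Pav_sc0005810.1_g020.1.mk was called for ‘Rainier’ against ‘Bing’ in each of the 3 fits that called any member there, and also with total in place of unique reads, at an adjusted p of 0.0367 (edgeR), where 0.317% of the genes tested were called.

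The members were spread over the genome draft, from which the rule had left out some scaffolds by identifier. How far its minimum of unique reads bears on the coding lengths and multiple matches given below was not tested. They lay on 60 scaffolds, 49 with 1 member, 10 with 2 and 1 with 3. The only members next to each other were Pav_sc0001885.1_g060.1.br and Pav_sc0001885.1_g070.1.mk. The second had 51, 44 and 95 reads in fruits of ‘Rainier’, ‘Lapins’ and ‘Bing’ and was called in no fruit pair, whereas its neighbour was called in both pairs with ‘Bing’. Of the 138 genes next to a member, 50 had no read in any library, while of all 43673 predicted genes only 16519 had at least 1 read. Of the 136 neighbours that were not members, 33 had at least 10 fruit reads, and 7 of these (21.2%) had a fruit share at least 4 times the leaf share or no leaf read, beside 16.2% of the 5261 other genes with at least 10 fruit reads. The coding length of the members had a median of 1430 bases, from 201 to 4122, beside 1186 for the 174 other genes and 1080 for all genes with reads. Reads matching more than 1 gene were found for 19 members (26.4%), 425 in all or 0.824% of their total reads. Of these, 182 were of Pav_sc0001882.1_g070.1.mk and 119 of Pav_sc0000129.1_g1710.1.mk. Such reads were found for 15 of the 174 other genes (8.62%), at 0.356% of their total reads. Over all genes they made up 1.49% to 2.28% of the total reads of a library.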

How the data were processed

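RNA of leaves and fruits was sequenced by pyrosequencing (Roche FLX). The authors trimmed the reads and mapped them to the predicted coding sequences of the sweet cherry genome in CLC Genome Workbench, and deposited raw counts per gene and library, as unique reads and as total reads, which include those matching several genes. Each file lists the same 43673 genes. Other deposited values, an RPKM column, served only to recover the coding length, which came out whole in each library, and TPM was not used.

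The members and the gene lists were chosen with earlier results of these data known. Shares are unique reads over the library sum, pooled over the libraries of a tissue for the ratio of fruit to leaf. Pairs of cultivars within a tissue were compared with the Z-test of Kal et al., as in the study, with p also adjusted by the method of Benjamini and Hochberg. Those p values cover counting error alone. The cultivar contrasts over both tissues came from the quasi-likelihood test of edgeR 4.0.16 (R 4.3.3) after TMM scaling and a filter on low counts, and from DESeq2 1.42.0. Their p values measure the spread between these libraries, which holds cultivar differences that were not alike in both tissues and may also be technical. The Python 3.11.15 steps used numpy 2.4.6, scipy 1.17.1, pandas 2.3.3 and matplotlib 3.10.9. Both kinds of test were first run on simulated counts in which 200 genes had been changed.

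The genes named were the 6 with the most fruit reads, those with the largest ratio and the most leaf reads, the nearest 2 on each side of each limit, the 2 with the largest called difference per direction in each fruit pair and 1 in each leaf pair, the 2 with the largest share of reads matching several genes, the 2 steadiest and those next to another member. Pav_sc0001461.1_g720.1.mk, Pav_sc0001181.1_g130.1.mk, Pav_sc0007796.1_g050.1.mk and Pav_sc0000058.1_g370.1.br were named after their values were seen. Alternatives covered the limits of the rule, total reads, TMM, equal weight for each library, adjusted p, other ratios and minimums, no filter on low counts, and leaving out each library. None of the 37283 genes of the reference table carried an identifier of these files, so no names, roles or sequences are given.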

Additional observations from a re-analysis of the deposited data

Results flagged for a closer look

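Pav_sc0000212.1_g080.1.br was called in opposite directions in the fruits and the leaves of the same pair of cultivars. In the fruits ‘Lapins’ had 3.517 times the share of ‘Bing’ (99 against 44 reads), and in the leaves 0.1495 times (2 against 17 reads, interval 0.0167 to 0.630). The leaf difference was not called with adjusted p, and the difference between fruit and leaf was not tested.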

How the results depend on the processing

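Of the alternative values, 60 kept their call or stayed within the limits set, 18 moved and none reversed. The number of members was 39 at a ratio of at least 8, 120 at 20 reads in each fruit and 37 at 50, and between 72 and 113 when 1 library was left out. The 113 came without the fruit of ‘Bing’ and held 67 of the 72. The mean share of fruit reads in members was 16.2% to 23.4% with 1 library left out, 23.4% again without the fruit of ‘Bing’. At a ratio of at least 3, 5 members were called between fruits of ‘Lapins’ and ‘Bing’, 10 between ‘Rainier’ and ‘Bing’ and 2 between ‘Rainier’ and ‘Lapins’. With adjusted p the leaf calls were 0, 3 and 1 for these pairs. For cultivars over both tissues (edgeR), 0 to 1, 0 to 4 and 0 to 1 members were called when 1 library was left out, and 1 for ‘Rainier’ against ‘Bing’ with total reads. The cause of these changes was not tested. Fruit and leaf of a cultivar form 3 pairs, but the difference between the tissues chose the members, so neither a paired nor an unpaired test of it was made. In the leaves the median member had 20 reads over the 3 libraries, which limits what can be told there.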
